A study of Mus musculus with 8 samples.

Results

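The effect of losing IRE1a was compared between regulatory and effector T cells, gene by gene, as the knockout minus wild-type difference in regulatory T cells minus the same difference in effector T cells. A gene entered if 2 or more of the 8 libraries gave it a value of 10 or above, and 13358 of the 18438 genes in the table did. The least expressed gene inside this limit was Nrk, with a second-highest value of 10.002, and the gene just outside was Cmtm8, at 9.997. A positive difference means that the knockout effect lay higher in regulatory than in effector T cells. It means equally that the gap between the cell types, regulatory minus effector, lay higher in the knockout than in the wild type.

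The cells came from the spleens of C57BL/6 mice on day 7 of experimental autoimmune encephalomyelitis (EAE), an autoimmune disease of the central nervous system that was induced with MOG, an antigen of the myelin sheath. The cells sorted as regulatory (Treg) were CD4+CD25hiYFP+, and those labelled effector T cells (Teff) were CD4+CD25-YFP-. Both were taken from wild-type (WT) and from IRE1a-/- (KO) animals. Each of the 4 groups held 2 libraries, and all 4 shared the strain, the tissue, the disease and the day. The labels do not say which gene drives YFP, which cells carry the deletion, or whether a group's libraries are 2 animals or 1. The spread behind each p-value is that between these libraries and may be technical. Values below are normalized read numbers given by library, and effects are differences of log2(value + 1), a scale on which changes at low values come out too small.

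IRE1a, encoded by Ern1, is a sensor in the membrane of the endoplasmic reticulum (ER). When unfolded protein accumulates, it splices the mRNA of the transcription factor XBP1, whose targets enlarge the folding capacity of the ER, and it can degrade other mRNAs at the ER. In mice with EAE, effector T cells are those that can drive the disease, and Treg, which depend on the transcription factor FOXP3, restrain them.

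Library sums were even, between 17504097 and 18751258, and 16324 to 16642 genes per library had a value above 0. The sorts were told apart by their defining genes. Foxp3 read between 89.1 and 117 in the 4 Treg libraries and between 0 and 8.29 in the Teff libraries, and Il2ra, which encodes CD25, read 8699 to 9012 against 436 to 690. Teff is the labels' name for a sort in which genes of naive and resting T cells read high. These genes (19) summed to 150916 to 157524 in WT Teff, against 80147 to 81886 in WT Treg. Ern1 itself read 377 and 399 in WT Treg, 326 and 359 in KO Treg, 559 and 616 in WT Teff, and 458 and 453 in KO Teff. Neither the Treg effect on Ern1 (-0.18, 95% interval -0.43 to 0.06) nor the Teff effect (-0.37, -0.61 to -0.12) passed the test over all genes (limma, Benjamini-Hochberg adjusted p = 0.489 and 0.0902). The sources used here do not give the deleted exons, and a value for the whole gene does not check a deletion of some of its exons.

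Few genes passed the test of the difference, although the genotype effects taken separately called many. The difference was called at an adjusted p below 0.05 for 3 genes, Zswim9, Art2a and the T cell receptor segment Trav7d-6, which is 0.0225% of those tested. All 3 differences were positive and 0 were negative. Without adjustment, 1384 genes (10.4%) had a p below 0.05, of which 867 (6.49% of those tested) were positive and 517 (3.87%) negative. From the same fit, KO against WT called 194 genes in Treg (1.45%), 90 higher in KO (0.674%) and 104 lower (0.779%). In Teff it called 924 (6.92%), 246 higher (1.84%) and 678 lower (5.08%). The smaller number of calls in Treg is not a test that the effects differ, and the direct test is the one reported here.

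The precision set by 2 libraries a group was limited. The 95% interval for the difference reached a median of 0.54 to either side of the estimate over all genes. The reach was 1.53 for genes with a mean below 100, 0.50 from 100 to 1000 and 0.27 at 1000 or above. An estimated difference smaller than this did not exclude 0 for a typical gene of that level, even without adjustment. The adjusted test needed larger ones, and 0 of the 3750 genes at 1000 or above were called.

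The 2 genotype effects, which share no library, were alike in part. Across genes their Pearson correlation was 0.37 over all 13358 genes and 0.59 over the 9381 genes with a mean of at least 100, as a description, since genes are not independent replicates. Among the 1384 genes with an unadjusted p below 0.05 for the difference, the effect was larger in size in Teff for 976 (70.5%), against 56.5% of all genes tested. The Teff effect was below 0 for 850 of them, against 7040 of all 13358. The gap between Treg and Teff widened with the knockout for 553 of them (39.96%), a share no higher than the 41.7% among all genes, narrowed for 293 and changed sign for 538.

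**Figure D1:**
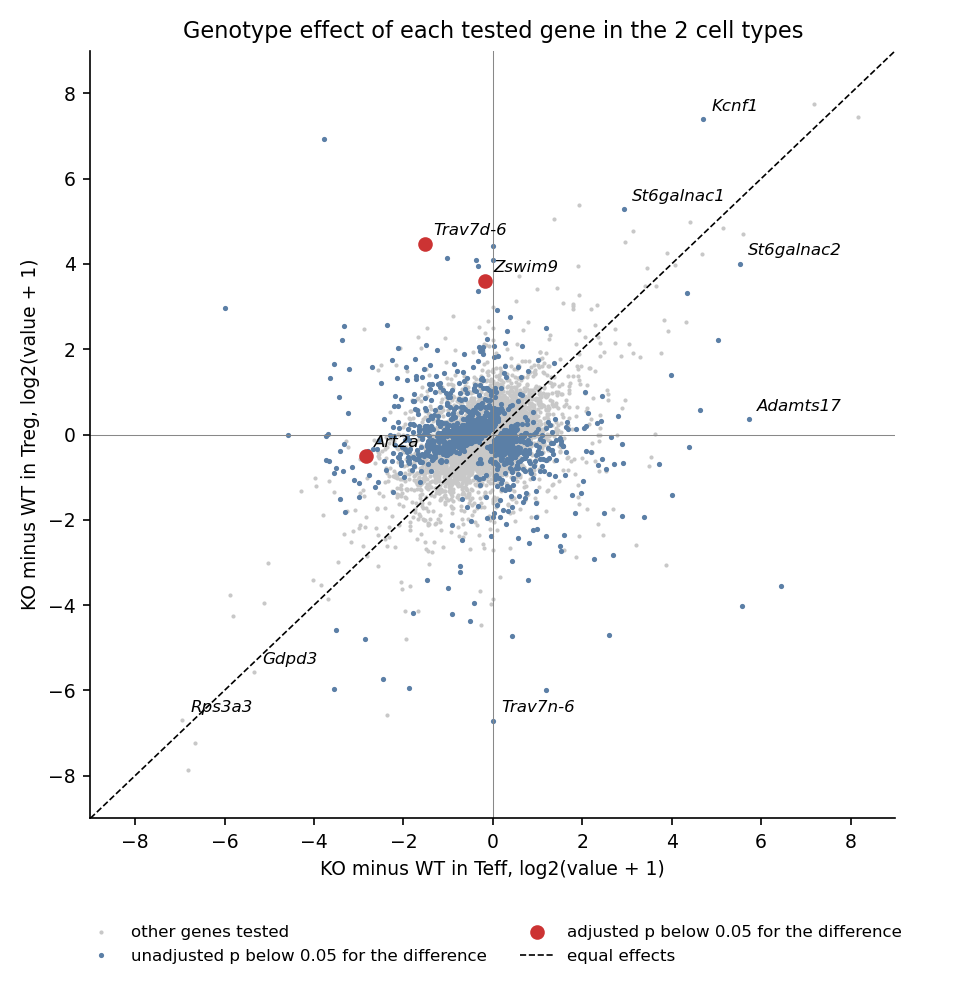
Genotype effect in Treg (vertical axis) against that in Teff (horizontal axis), both KO minus WT on the log2(value + 1) scale, for the 13358 genes tested. The dashed line marks equal effects, blue points have an unadjusted p below 0.05 for the difference (1384 genes), and the 3 red points are the genes called after adjustment, which lie above the line.

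Zswim9 had the lowest adjusted p together with Art2a and was low in WT Treg alone. It encodes a zinc finger SWIM domain protein and lies on the minus strand at chr7:13258967-13278721 (GRCm38, whole gene). It read 20.0 and 22.2 in WT Treg, 269 and 269 in KO Treg, 206 and 277 in WT Teff, and 210 and 210 in KO Teff. WT Treg thus stood apart, below the other 3 groups, which lay between 206 and 277. The Treg effect was 3.61 (95% interval 3.17 to 4.05, adjusted p = 0.000217) and the Teff effect -0.18 (-0.62 to 0.25, adjusted p = 0.63). The difference was 3.79 (3.18 to 4.41, SE 0.26, limma adjusted p = 0.00889). The gap of Treg below Teff, -3.44 in WT, was 0.36 in KO.

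The start of Zswim9 overlaps that of Lig1, the gene of DNA ligase I, which runs in the opposite direction from chr7:13277283. Because the library preparation names no step that marks the strand, reads in the stretch that both genes cover cannot be told apart. Lig1 read 934 and 1015 in WT Treg, 821 and 909 in KO Treg, 644 and 678 in WT Teff, and 386 and 414 in KO Teff, and its difference was 0.55 (0.23 to 0.87, adjusted p = 0.231). It was lowest in KO Teff, whereas Zswim9 was lowest in WT Treg. These are values of whole genes, and how much of the Zswim9 value comes from the shared stretch was not tested. Of the 50-base windows of Zswim9 transcripts, 50 bases being the read length, 1.69% also occur in another gene. The promoter of Zswim9 is shown because it lies inside Lig1 (RefSeq, GRCm38.p6, minus strand, chr7:13278672-13278971, 5′ to 3′, with the 50 bases from the start site on in capitals).
Zswim9 promoter: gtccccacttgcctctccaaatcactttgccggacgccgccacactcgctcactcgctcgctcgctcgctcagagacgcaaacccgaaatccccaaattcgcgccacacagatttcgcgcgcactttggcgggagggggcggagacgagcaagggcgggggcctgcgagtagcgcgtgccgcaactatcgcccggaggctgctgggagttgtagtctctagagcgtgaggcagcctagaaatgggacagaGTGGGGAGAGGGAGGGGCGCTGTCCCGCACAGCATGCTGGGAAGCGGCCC
It holds neither of the motifs searched on both strands, the UPRE core TGACGTG, which XBP1 is known to bind, and the ERSE, written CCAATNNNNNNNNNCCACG. Among the 10232 tested genes with a promoter in the table, 3.19% held the UPRE core and 0.176% the ERSE. Of the genes with an unadjusted p below 0.05, the UPRE core was in 3.18% of 660 promoters with a positive difference and 3.32% of 361 with a negative one. These shares are close to those of all promoters, and a match is a stretch of letters, not a binding site.

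Art2a, the other gene at that adjusted p, was the called gene with the larger effect in Teff. ART2 proteins are ecto-ADP-ribosyltransferases on the T cell surface that use extracellular NAD, and in mice they modify the ATP-gated channel P2RX7, which can kill the cell. Art2a read 386 and 400 in WT Treg, 290 and 267 in KO Treg, 648 and 671 in WT Teff, and 87.7 and 94.7 in KO Teff. Teff held the most of it in WT and the least in KO, with no overlap between the 4 groups. The Treg effect was -0.50 (95% interval -0.76 to -0.23, adjusted p = 0.0991), the Teff effect -2.84 (-3.11 to -2.57, adjusted p = 7.4e-05) and the difference 2.34 (1.96 to 2.72, SE 0.16, limma adjusted p = 0.00889). The gap between the cell types thus went from -0.74 in WT to 1.60 in KO.

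Art2a lies on the minus strand at chr7:101552453-101560865 and is annotated in GENCODE M21 as a polymorphic pseudogene, a gene that is intact in some mouse strains only. Its neighbour and paralog Art2b, at chr7:101576970-101585600, shares 50-base windows with it, 11.8% of the windows of Art2a, so part of the reads could be counted to either. Art2b read 896 and 888 in WT Treg, 1876 and 1924 in KO Treg, 990 and 1048 in WT Teff, and 1059 and 1260 in KO Teff. It rose in Treg by 1.09 (adjusted p = 0.00257), and its Teff effect was 0.18 (adjusted p = 0.321). Its difference was 0.91 (0.60 to 1.22, adjusted p = 0.10). Summed over both genes, the values were 1282 and 1289 in WT Treg, 2166 and 2191 in KO Treg, 1637 and 1719 in WT Teff, and 1147 and 1355 in KO Teff, a difference of 1.19. The difference of the sum was smaller than that of Art2a, and the sums did not overlap between WT and KO in either cell type.

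P2rx7, the gene of the channel that ART2 modifies, read 3667 and 3789 in WT Treg, 3779 and 3837 in KO Treg, 2991 and 3111 in WT Teff, and 2027 and 1895 in KO Teff. It fell in Teff by 0.64 on the log2 scale (adjusted p = 0.0024), its Treg effect was 0.03 (-0.11 to 0.17), and its difference was 0.67 (0.47 to 0.86, adjusted p = 0.0719). P2rx7 is also a member of the follicular helper list described below and is counted there again.

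Trav7d-6 is a variable segment of the T cell receptor alpha chain, and its call belongs with a second segment of identical sequence. It read 0 and 0 in WT Treg, 17.7 and 25.5 in KO Treg, 80.3 and 83.7 in WT Teff, and 26.8 and 28.8 in KO Teff, with a fitted difference of 6.00 (4.80 to 7.20, limma adjusted p = 0.0247). Trav7n-6 read 107 and 101 in WT Treg and was listed at 0 in the other 6 libraries. With 2 values of Trav7d-6 and 6 of Trav7n-6 at 0, the size of both fitted differences depends on the pseudocount and is no measured fold. Each of the 50-base windows of either segment, 100% of them, occurs in another gene. Their V exons are shown with that of the closest relative Trav7-6 (GENCODE M21, GRCm38, plus strand, 5′ to 3′), at chr14:53020704-53020991, chr14:53324921-53325208 and chr14:53717004-53717291, with the positions at which the 3 are not all the same in capitals.
Trav7d-6: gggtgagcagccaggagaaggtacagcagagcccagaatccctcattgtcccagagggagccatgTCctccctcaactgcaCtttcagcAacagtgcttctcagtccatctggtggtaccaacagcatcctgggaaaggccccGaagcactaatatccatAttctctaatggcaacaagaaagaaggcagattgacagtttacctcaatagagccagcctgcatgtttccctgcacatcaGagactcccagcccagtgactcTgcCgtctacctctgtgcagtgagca
Trav7n-6: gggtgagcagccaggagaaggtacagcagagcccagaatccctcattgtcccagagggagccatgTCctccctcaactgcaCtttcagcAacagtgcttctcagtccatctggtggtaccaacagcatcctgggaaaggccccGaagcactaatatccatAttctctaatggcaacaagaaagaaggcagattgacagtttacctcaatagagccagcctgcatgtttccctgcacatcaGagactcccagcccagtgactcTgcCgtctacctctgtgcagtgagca
Trav7-6: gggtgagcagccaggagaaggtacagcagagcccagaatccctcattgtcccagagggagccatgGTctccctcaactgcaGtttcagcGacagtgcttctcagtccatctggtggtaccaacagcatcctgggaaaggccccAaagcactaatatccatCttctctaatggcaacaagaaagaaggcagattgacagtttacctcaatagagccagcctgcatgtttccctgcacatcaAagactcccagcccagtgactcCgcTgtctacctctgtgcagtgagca
The first 2 exons had 0 differences over 288 bases, and Trav7-6 differed from each at 9 positions. A read from these exons of Trav7d-6 or Trav7n-6 cannot be placed in one or the other. Summed over both, the values were 107 and 101 in WT Treg, 17.7 and 25.5 in KO Treg, 80.3 and 83.7 in WT Teff, and 26.8 and 28.8 in KO Teff. On the sum, KO lay below WT in both cell types, by effects of -2.24 in Treg and -1.53 in Teff, a difference of -0.71 in place of 6.00. The 12 Trav7 segments in the table summed to 761 to 934 in every library, with a difference of 0.07.

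**Figure D2:**
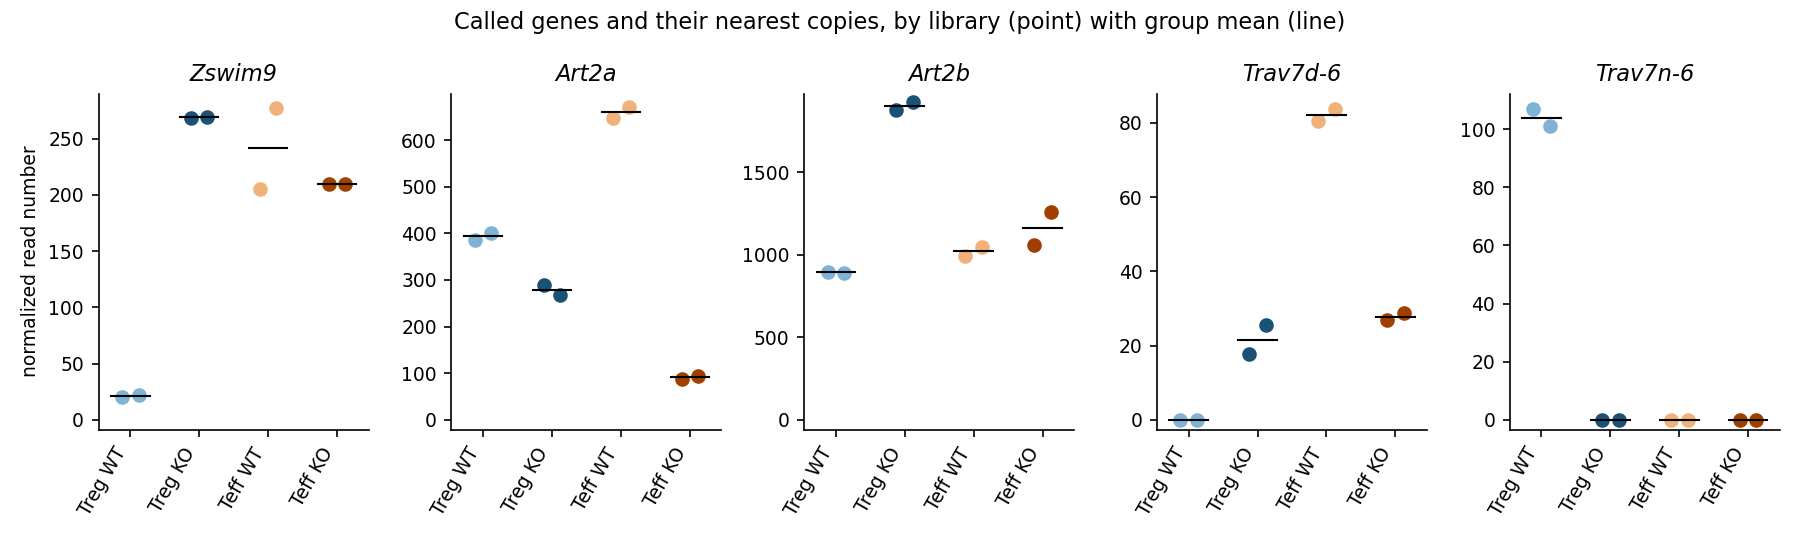
Normalized read number (vertical axes, each from 0) of the 3 called genes and of the nearest copies Art2b and Trav7n-6, with 1 point per library and a line at the mean of each group. Zswim9 was at 20.0 and 22.2 only in WT Treg, Art2a was lowest in KO Teff, and Trav7d-6 was listed at 0 in the group in which Trav7n-6 was at 107 and 101.

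Fewer calls remained when 1 of the 8 libraries was left out, which leaves 1 library in its group and lowers the power of the test. Without WT Treg replicate 1, 0 genes were called. Zswim9 was no longer called without WT Treg replicate 1, KO Treg replicate 1 or 2, or KO Teff replicate 1 or 2 (limma adjusted p up to 0.0806). Art2a was lost without any 1 of the Treg or WT Teff libraries (adjusted p up to 0.0839), and Trav7d-6 without any 1 of the 8 (adjusted p up to 0.162). The sizes of the first 2 differences moved little, between 3.58 and 4.01 for Zswim9 and between 2.29 and 2.40 for Art2a.

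Because few single genes passed, gene lists are described by how many members reached an unadjusted p below 0.05, beside the 6.49% of all genes that did so with a positive difference and the 3.87% with a negative one. No member of the 43 lists was called for the difference after adjustment, and the lowest adjusted p of a member was 0.0591. The median over all genes was 0.02 for the difference, -0.01 for the Treg effect and -0.02 for the Teff effect. Of all genes, 52.9% had a difference above 0. These counts have no test of their own, and the lists were drawn up with earlier results of these data known. Lists share members (848 entries, 761 distinct genes), so their counts are not separate results.

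Markers of some other cell types also read lower in KO Teff, and their part in the results on gene lists was not tested. The 12 B cell markers summed to 877 to 1002 in WT Teff and 467 to 477 in KO Teff, against 952 to 983 in WT Treg and 776 to 974 in KO Treg. The 9 plasmacytoid dendritic cell markers summed to 2317 to 2798 in WT Teff and 1577 to 1905 in KO Teff, against 2070 to 2158 and 1963 to 2000.0 in Treg, and the 7 dendritic cell markers to 823 to 1514 and 369 to 679 in Teff against 348 to 382 and 196 to 218 in Treg. Macrophage and monocyte markers (14) summed lower in KO in both cell types, from 24899 to 26008 in WT Treg to 14627 to 15461 in KO Treg, and from 1218 to 2769 in WT Teff to 859 to 1160 in KO Teff. No marker of these 4 lists was at 0 in all libraries. Plasma cell markers summed to 3345 to 3630 in WT Teff and 2605 to 2936 in KO Teff. NK cell markers summed to 2657 to 2805 and 2150 to 2359. WT and KO Teff overlapped for CD8 T cell markers, at 250 to 277 and 270 to 289. They also overlapped for granulocyte markers, at 41.9 to 193 and 20.6 to 45.5. Erythroid and platelet markers overlapped too, at 242 to 477 and 276 to 371. In sorted bulk RNA, fewer cells of a type and less RNA per cell cannot be told apart. The same holds for the share of activated cells within a sort, whose part in the results on gene lists was not tested.

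Genes of activated, suppressive Treg had mostly positive differences, with lower values in KO Teff and little effect in Treg. Of the 24 tested genes of effector Treg and suppression, 16 had an unadjusted p below 0.05 with a positive difference and 0 with a negative one. Their median effect was -0.07 in Treg and -0.73 in Teff. At an adjusted p below 0.05, 17 fell in Teff and 1 in Treg, against 5.08% and 0.779% of all genes. For the 23 Treg core genes the counts were 9 and 1, with medians of -0.12 in Treg and -0.40 in Teff. Most of these genes read lower in Teff than in Treg, and the median gap between the cell types, already 1.54 for the effector Treg genes in WT, was 2.20 in KO.

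Tigit, an inhibitory receptor, read 3408 and 3566 in WT Treg, 3340 and 3496 in KO Treg, 1107 and 1043 in WT Teff, and 668 and 571 in KO Teff. The Treg groups overlapped, whereas KO Teff lay below WT Teff, and the difference was 0.77 (0.47 to 1.06, adjusted p = 0.124). Ccr8, a chemokine receptor of tissue Treg, read 1849 and 1909 in WT Treg, 1830 and 1949 in KO Treg, 148 and 159 in WT Teff, and 77.3 and 82.4 in KO Teff. It fell in Teff by 0.93 on the log2 scale (adjusted p = 0.00356), while the Treg effect was 0.01 (-0.22 to 0.24), and the difference was 0.94 (0.62 to 1.26, adjusted p = 0.10). Gzmb, the cytotoxic protease granzyme B, read 445 and 446 in WT Treg, 488 and 525 in KO Treg, 239 and 282 in WT Teff, and 104 and 86.5 in KO Teff. Its difference was 1.63 (1.15 to 2.11, adjusted p = 0.0719).

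Pparg, a nuclear receptor of fat-tissue Treg, had the largest difference of the list, 3.75 (2.60 to 4.90, adjusted p = 0.0725). It read 192 and 180 in WT Treg, 374 and 187 in KO Treg, 39.2 and 34.6 in WT Teff, and 2.59 and 3.44 in KO Teff. Its KO Treg libraries were far apart, and the low Teff values make the size depend on the pseudocount (2.88 to 3.93 over the settings tried that kept all libraries). Among Treg core genes, Tnfrsf9 (4-1BB, a costimulatory receptor) read 4608 and 4815 in WT Treg, 3847 and 3850 in KO Treg, 358 and 360 in WT Teff, and 160 and 173 in KO Teff, a difference of 0.82 (0.57 to 1.06, adjusted p = 0.0719). KO lay below WT in both cell types, with a Treg effect of -0.29 (adjusted p = 0.124) and a called Teff effect of -1.11 (adjusted p = 0.000768). Izumo1r (FR4, a folate receptor of Treg and anergic T cells), Tnfrsf4 (OX40) and Plagl1, a zinc finger transcription factor, had differences of 0.41, 0.61 and 1.09 (adjusted p = 0.147, 0.147 and 0.104), each with a called Teff effect (-0.51, -0.87 and -1.49). Foxp3 itself ran the other way, with a fitted difference of -2.09 (adjusted p = 0.402) that rests on Teff values of 0 and 0 in WT and 2.06 and 8.29 in KO.

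Follicular helper genes also lay lower in KO Teff, with a median Treg effect of 0.00. Follicular helper T cells help B cells and express PD-1 (Pdcd1), ICOS and the transcription factors TOX and TOX2. Of 21 tested genes, 15 had an unadjusted p below 0.05 with a positive difference and 0 with a negative one. All 21 differences lay above 0, against 52.9% of those of all genes. The median Teff effect was -0.67, and 15 of the 21 fell in Teff, against 5.08% of all genes. Pdcd1 read 1912 and 1987 in WT Treg, 2192 and 2085 in KO Treg, 1166 and 1315 in WT Teff, and 767 and 784 in KO Teff. KO lay above WT in Treg and below it in Teff, and the difference was 0.81 (0.55 to 1.07, adjusted p = 0.0825). Tox, at 3224 and 3244 in WT Treg, 3064 and 3119 in KO Treg, 1759 and 1686 in WT Teff, and 1035 and 1048 in KO Teff, had a difference of 0.66 (0.47 to 0.85, adjusted p = 0.0719). Tox2 was higher in Teff than in Treg in WT and lower in KO, with 1077 and 1070 in WT Treg, 1140 and 1232 in KO Treg, 1602 and 1571 in WT Teff, and 1030 and 870 in KO Teff (difference 0.89, SE 0.13, adjusted p = 0.104). Icos had a difference of 0.56 (0.29 to 0.82, adjusted p = 0.157).

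Genes induced by the T cell receptor followed. Of 34, 16 had an unadjusted p below 0.05 with a positive difference and 0 with a negative one, with medians of -0.14 in Treg and -0.53 in Teff. In Teff 20 fell, against 2 in Treg, where 5.08% and 0.779% of all genes did. Cd200, a ligand that inhibits myeloid cells, read 885 and 874 in WT Treg, 983 and 1142 in KO Treg, 848 and 716 in WT Teff, and 470 and 430 in KO Teff (difference 1.06, 0.67 to 1.45, adjusted p = 0.106). Tnfsf11, the cytokine RANKL, lay lower in KO in both cell types, with effects of -0.39 in Treg (adjusted p = 0.132) and -1.19 in Teff (adjusted p = 0.00179). Its difference was 0.80 (0.46 to 1.13, adjusted p = 0.146). Of 14 NF-kB pathway genes 0 had an unadjusted p below 0.05 with a positive difference and 1 with a negative one, and their medians were -0.22 in Treg and -0.28 in Teff. In Teff 5 of the 14 fell, against 1 in Treg (of all genes, 5.08% and 0.779%).

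Helper and homing genes gave mixed lists. Of 20 Th1 genes 9 had an unadjusted p below 0.05 with a positive difference and 1 with a negative one (medians -0.28 in Treg and -0.62 in Teff), of 20 Th17 genes 4 and 1 (-0.04 and -0.44), and of 26 chemokine receptor and homing genes 15 and 2 (-0.02 and -0.26). Cxcr3, the chemokine receptor of Th1 cells, read 1603 and 1588 in WT Treg, 1309 and 1372 in KO Treg, 2150 and 2254 in WT Teff, and 1286 and 1237 in KO Teff. Teff exceeded Treg in WT, whereas in KO the libraries of both lay between 1237 and 1372, and the difference was 0.55 (0.34 to 0.77, adjusted p = 0.124). Stat4, which carries the interleukin-12 signal, had a difference of 0.39 (0.21 to 0.56, adjusted p = 0.152). Furin, a protease of the Th17 list, and Ahr, a ligand-activated transcription factor, had differences of 0.54 and 0.74 (adjusted p = 0.124 and 0.147), with called Teff effects of -0.72 and -0.76.

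Runx3, a transcription factor of Th1 and killer cells, was the Th1 gene with a negative difference at an unadjusted p below 0.05, of 3 Th1 genes with a difference below 0. It read 2840 and 2650 in WT Treg, 1399 and 1327 in KO Treg, 2402 and 3879 in WT Teff, and 3736 and 4641 in KO Teff. KO Treg stood below the other groups, the Teff groups overlapped, and the difference was -1.46 (-2.15 to -0.76, adjusted p = 0.157), with a Treg effect of -1.01 (adjusted p = 0.074).

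A few named genes had the larger effect in Treg. S1pr1, a sphingosine phosphate receptor that T cells need to exit lymphoid organs, rose in Treg by 0.60 (adjusted p = 0.00155), from 4680 and 4614 in WT to 7076 and 7013 in KO. In Teff it read 10655 and 10357 in WT and 12126 and 11661 in KO, an effect of 0.18 (adjusted p = 0.0638). Its difference was 0.42 (0.27 to 0.57, adjusted p = 0.104). Casp4, the inflammatory caspase-11, read 726 and 787 in WT Treg, 1201 and 1163 in KO Treg, 579 and 681 in WT Teff, and 619 and 553 in KO Teff. Only its Treg effect of 0.65 was called (adjusted p = 0.0429, against 0.647 in Teff), and the difference was 0.75 (0.39 to 1.11, adjusted p = 0.16). Ccr7, which guides resting T cells to lymph nodes, had instead the larger effect in Teff, a called 0.41 against 0.04 in Treg. Its difference was -0.37 (adjusted p = 0.236). The 19 genes of naive and resting T cells as a list lay higher in KO in both cell types by like medians, 0.26 in Treg and 0.22 in Teff.

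Proliferation genes lay lower in KO in both cell types and by more in Teff. Of 31 mitosis genes, 14 had an unadjusted p below 0.05 with a positive difference and 0 with a negative one. Their median effect was -0.31 in Treg and -1.04 in Teff, where 15 fell against 1 in Treg (of all genes, 5.08% and 0.779%). In WT the cell types were level (median gap 0.04), and in KO Treg lay above Teff by a median of 0.63. For 31 genes of S phase and DNA replication the counts were 4 and 0 and the medians -0.28 and -0.47. Mki67, the proliferation marker Ki-67, read 2568 and 2338 in WT Treg, 1706 and 1677 in KO Treg, 2109 and 2150 in WT Teff, and 939 and 809 in KO Teff. It fell in both cell types, by 0.53 in Treg and 1.29 in Teff on the log2 scale (adjusted p = 0.0408 and 0.000844). The difference was 0.75 (0.46 to 1.05, adjusted p = 0.124).

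Cenpf, a kinetochore protein, had the largest mitotic difference, 3.08 (2.06 to 4.09, adjusted p = 0.0825). It read 131 and 170 in WT Treg, 208 and 372 in KO Treg, 139 and 106 in WT Teff, and 25.9 and 26.0 in KO Teff, so KO lay above WT in Treg, unlike Mki67. Ccnb2, cyclin B2, read 165 and 185 in WT Treg, 168 and 147 in KO Treg, 182 and 162 in WT Teff, and 70.1 and 65.9 in KO Teff (difference 1.18, 0.63 to 1.72, adjusted p = 0.153). Rrm2, a subunit of ribonucleotide reductase, and Mcm6, of the replicative helicase, had differences of 0.76 and 0.51 (adjusted p = 0.178 and 0.196).

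Cytosolic ribosomal protein genes had mostly negative differences, with higher values in KO Teff. Of 37, 0 had an unadjusted p below 0.05 with a positive difference and 24 with a negative one. The median effect was 0.00 in Treg and 0.26 in Teff, where 19 rose and 1 fell (of all genes, 1.84% and 5.08%). Rps20 read 4470 and 4454 in WT Treg, 4590 and 4519 in KO Treg, 7071 and 7398 in WT Teff, and 9703 and 9266 in KO Teff. The 4 Treg libraries lay between 4454 and 4590, whereas KO Teff exceeded WT Teff, and the difference was -0.36 (-0.53 to -0.20, adjusted p = 0.152). Rpl3 and Rps15, each a ribosomal protein, had differences of -0.31 and -0.27 (adjusted p = 0.128 and 0.147). After quantile normalization these were -0.12 and -0.15, and over all settings tried the adjusted p of Rpl3 reached 0.551 and that of Rps15 0.396. Pseudogene copies share reads with such genes, so a single gene's value is uncertain (30.3% of the 50-base windows of Rps15 occur elsewhere).

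**Figure D3:**
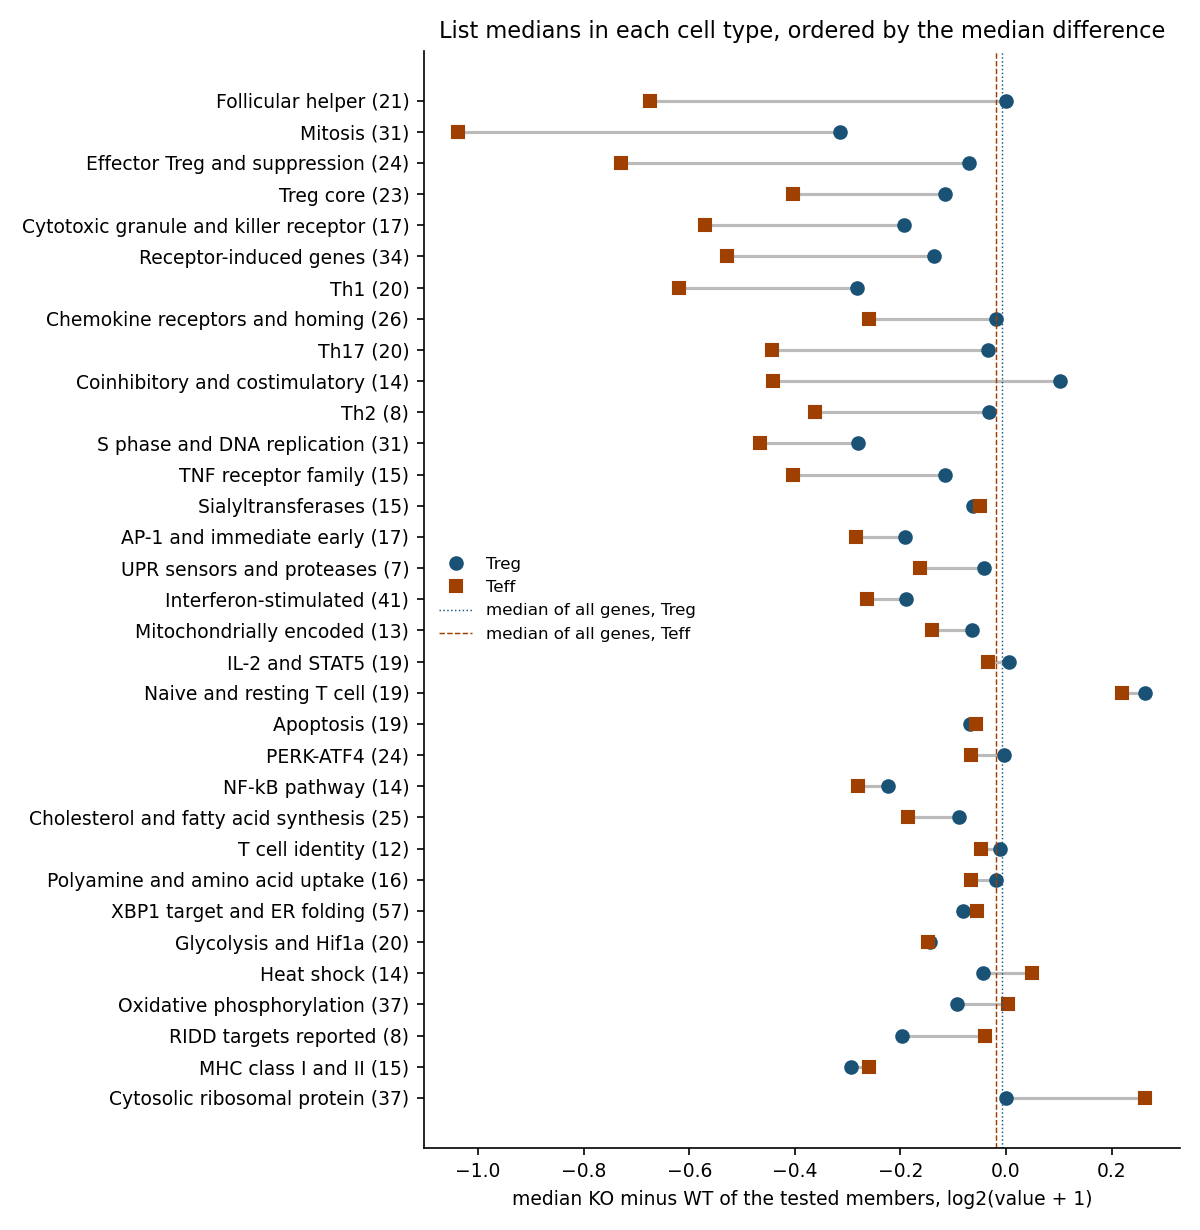
Median genotype effect (KO minus WT, log2(value + 1), horizontal axis) of the tested members of each list shown, in Treg (circles) and Teff (squares). Brackets give the number tested. From the follicular helper list (0.00 in Treg, -0.67 in Teff) at the top to the ribosomal protein list (0.00 and 0.26) at the bottom the lists shown are ordered by the median difference. Vertical lines mark the medians of all genes. Left out are the markers of other cell types and the sex-linked genes. Of these lists, dendritic cell (0.82), granulocyte (0.77), B cell (0.73), plasmacytoid dendritic cell (0.73) and sex-linked (0.68) had median differences above the follicular helper list (0.61). The other lists left out lay below it.

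XBP1 targets and ER folding genes, which the unfolded protein response induces, differed little between the cell types. Of 57 XBP1 target and ER folding genes, 0 reached an unadjusted p below 0.05 in either direction, and none was called in Treg or in Teff. Their median difference was 0.02 (-0.04 to 0.04 with 1 library left out), with medians of -0.08 in Treg and -0.05 in Teff. Xbp1 read 1602 and 1648 in WT Treg, 2000 and 1837 in KO Treg, 1359 and 1286 in WT Teff, and 1657 and 1381 in KO Teff. Values for the whole gene do not separate spliced from unspliced Xbp1 mRNA. Its KO libraries lay above the WT libraries in both cell types, and the difference was 0.04 (-0.28 to 0.37, adjusted p = 0.954). Calr, the chaperone calreticulin, read 14105 and 14276 in WT Treg, 13222 and 12400 in KO Treg, 11218 and 10795 in WT Teff, and 11311 and 10910 in KO Teff (difference -0.16, -0.33 to 0.00, adjusted p = 0.497).

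Of 7 UPR sensors and proteases, 2 had an unadjusted p below 0.05, both with a positive difference. Atf6, the sensor that is cut in the Golgi, read 862 and 801 in WT Treg, 671 and 720 in KO Treg, 838 and 1042 in WT Teff, and 556 and 549 in KO Teff. It fell in Teff by 0.76 on the log2 scale (adjusted p = 0.0128), and its difference was 0.50 (0.11 to 0.89, adjusted p = 0.359). Eif2ak3, the gene of the sensor PERK, had a difference of 0.45 (0.04 to 0.86, adjusted p = 0.436), and Ern1 one of 0.18 (-0.16 to 0.53, adjusted p = 0.743). Of 8 tested mRNAs reported as decay targets of IRE1a, 0 reached an unadjusted p below 0.05. Of the 8 differences 7 lay below 0, against 6294 of all 13358, and the median was -0.12. That median ranged from -0.05 without KO Teff replicate 1 to -0.24 without KO Teff replicate 2. Hgsnat, a lysosomal acetyltransferase of that list, had a difference of -0.46 (-0.96 to 0.04, adjusted p = 0.529). For PERK-ATF4 genes 3 of 24 had a positive and 1 a negative difference at that p, and for interferon-stimulated genes 5 and 2 of 41, the first with a median difference of 0.06 and the second of 0.10. Leaving out 1 library at a time moved these medians between 0.02 and 0.11 and between 0.03 and 0.16, with the lowest and highest values without 1 of the KO Teff libraries.

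**Figure D4:**
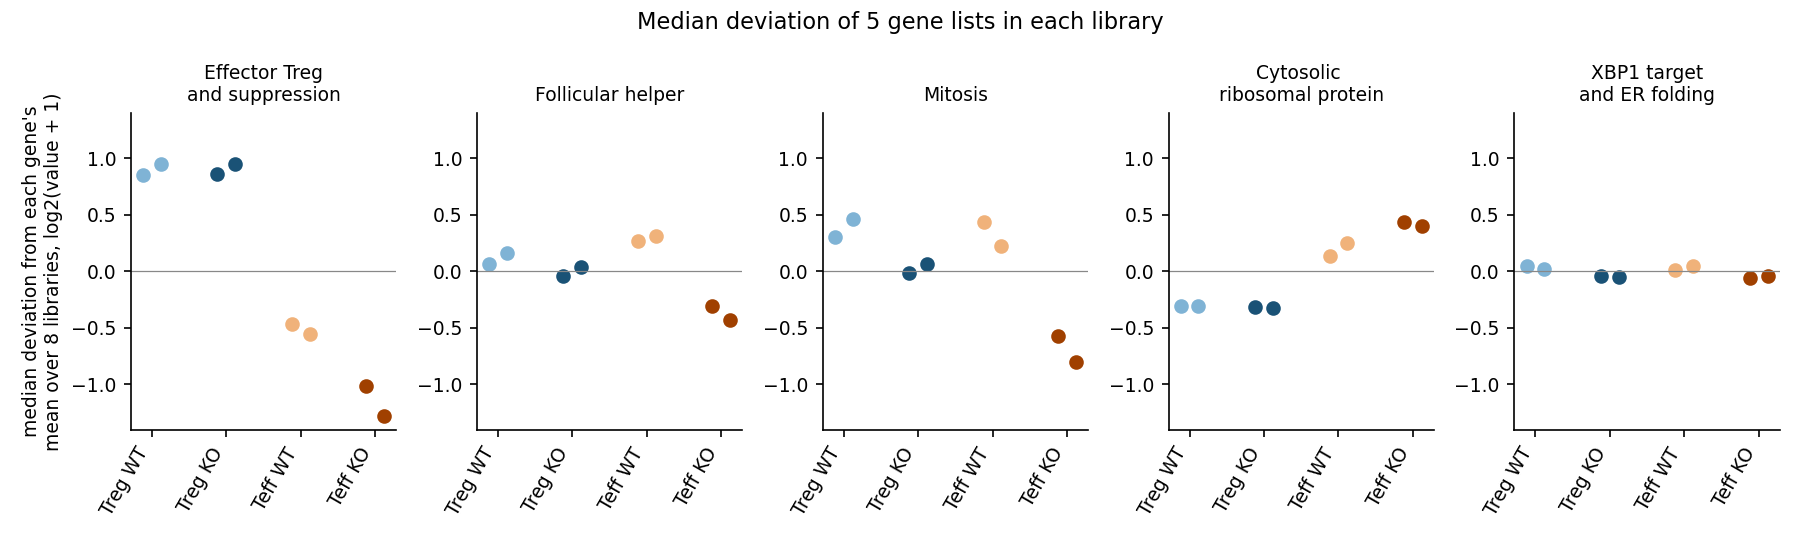
Median over the members of 5 lists of each gene's deviation from its own mean over the 8 libraries (log2(value + 1), vertical axis), with 1 point per library. Effector Treg and follicular helper genes separate WT from KO in Teff and hardly in Treg (effector Treg 0.85 to 0.95 in all Treg libraries), mitosis genes are lowest in KO Teff (-0.57 and -0.80), ribosomal protein genes reach 0.44 and 0.40 there, and ER folding genes stay between -0.06 and 0.05 in all libraries.

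Genes called in both cell types allow the effects to be set side by side. KO against WT was called in both for 129 genes, 128 with the same sign (52 higher and 76 lower in KO) and 1, Vim, with opposite signs. Of the 128, the effect was larger in size in Treg for 73, the interval of the difference excluded 0 for 29, and 0 passed the adjusted test of the difference. That interval reached a median of 0.36 to either side among them, so differences below that size remain possible for a typical gene.

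St6galnac2, which adds sialic acid to O-linked glycans, had the largest Teff effect of the shared genes named here that were higher in KO. It read 92.7 and 110 in WT Treg, 1649 and 1614 in KO Treg, 129 and 105 in WT Teff, and 5437 and 5333 in KO Teff. It rose by 4.00 in Treg and 5.52 in Teff, and the difference was -1.52 (-1.94 to -1.09, adjusted p = 0.0719). Its neighbour St6galnac1, an enzyme of the same family, read 7.84 and 10.8 in WT Treg, 396 and 402 in KO Treg, 216 and 246 in WT Teff, and 1785 and 1747 in KO Teff. It rose by 5.29 and 2.93, and the difference was 2.36 (1.79 to 2.93, adjusted p = 0.0591), the opposite sign to that of St6galnac2. Of the 50-base windows of St6galnac1, 34.9% occur in another gene, but 0 of them in St6galnac2. Given side by side with the single genes, the sum of the 2 had effects of 4.19 in Treg and 4.36 in Teff, a difference of -0.16. St6galnac2 (chr11:116675303-116694868) and St6galnac1 (chr11:116765025-116775507) lie on the chromosome of Ern1 (chr11:106394650-106487852). What that position adds to their effects was not tested.

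Kcnf1, a potassium channel subunit, was nearly silent in WT, at 0.981 and 1.96 in Treg and 2.01 and 5.04 in Teff, and read 408 and 405 in KO Treg against 101 and 119 in KO Teff. The difference was 2.69 (1.33 to 4.05, adjusted p = 0.172), with a size that depends on the pseudocount (2.22 to 2.85). The class I genes H2-Bl, H2-Q1 and H2-T3 of the major histocompatibility complex rose in both cell types. H2-Q1 read 81.2 and 117 in WT Treg, 1057 and 1127 in KO Treg, 92.3 and 79.1 in WT Teff, and 958 and 883 in KO Teff, with a difference of 0.06 (-0.55 to 0.67). For H2-Bl the difference was -0.11 (-0.82 to 0.60), and for H2-T3 -1.02 (-1.97 to -0.07, adjusted p = 0.444). Class I genes are near copies of each other, and 14.96% of the windows of H2-Q1 and 9.55% of those of H2-Bl occur in another gene. Cygb, cytoglobin, rose by 3.90 in Treg and 3.46 in Teff, with a difference of 0.45 (-0.72 to 1.61).

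Among shared genes that were lower in KO, Gdpd3, a lysophospholipase, read 1345 and 1405 in WT Treg, 26.6 and 29.4 in KO Treg, 1392 and 1236 in WT Teff, and 32.5 and 29.9 in KO Teff. It fell in both, with effects of -5.57 in Treg and -5.35 in Teff, and the interval of the difference, -0.68 to 0.24 about -0.22, bounds how far the effects can be apart. Rps3a3, an Rps3a-like ribosomal protein gene with 65.1% of its windows found elsewhere, read 3884 and 3655 in WT Treg, 38.4 and 32.4 in KO Treg, 6861 and 8241 in WT Teff, and 41.3 and 87.5 in KO Teff (difference 0.24, -0.78 to 1.27). Eps8l1, an actin regulator, had a difference of 0.31 (-0.44 to 1.06). Rec8, a meiotic cohesin subunit, read 408 and 392 in WT Treg, 1.80 and 13.4 in KO Treg, 35.0 and 67.3 in WT Teff, and 2.71 and 3.81 in KO Teff, and its wide interval, -4.83 to -0.02 about -2.43, follows its low KO values.

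Vim, the intermediate filament vimentin, was the one gene called with opposite signs. It read 9076 and 9547 in WT Treg, 11277 and 11395 in KO Treg, 10002 and 10297 in WT Teff, and 8350 and 8628 in KO Teff, with no overlap of WT and KO in either cell type. It rose by 0.28 in Treg (adjusted p = 0.0414) and fell by 0.26 in Teff (adjusted p = 0.0229) on the log2 scale. The difference was 0.54 (0.38 to 0.70), and its adjusted p, 0.0719, missed the threshold.

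**Figure D5:**
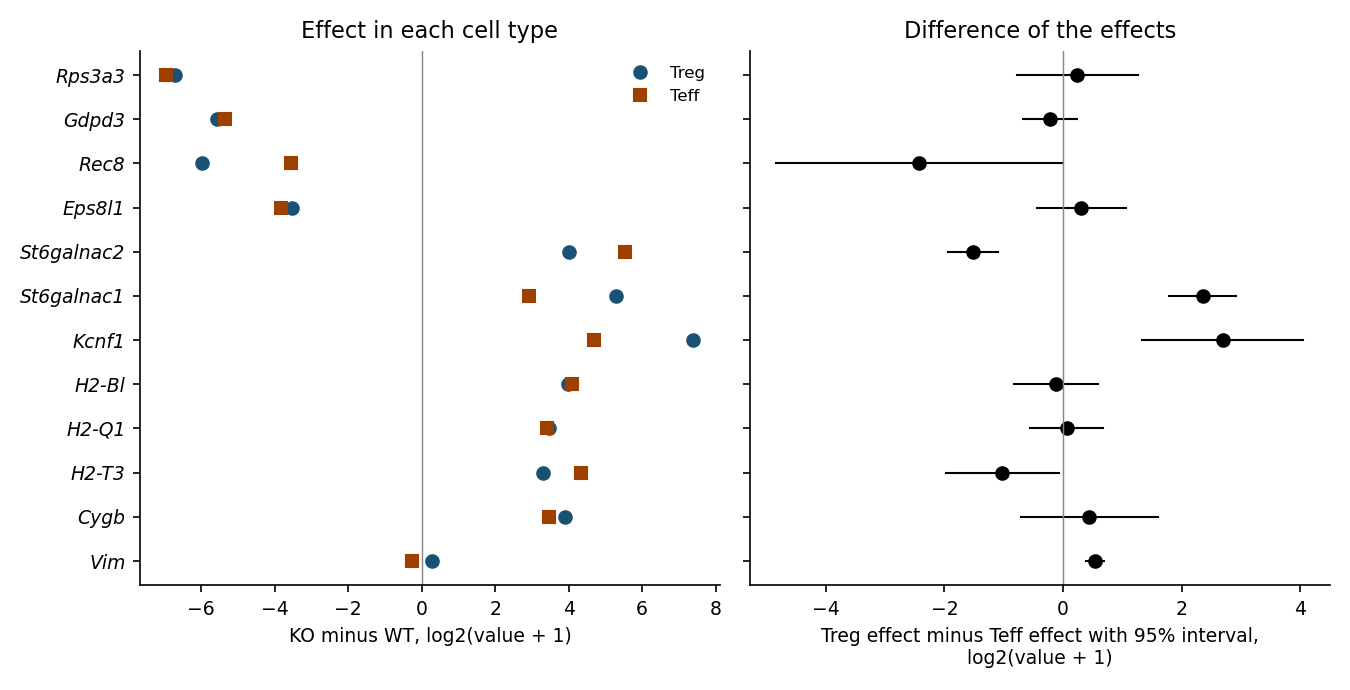
Left, genotype effects (KO minus WT, log2(value + 1)) in Treg (circles) and Teff (squares) of the genes called in both and described from St6galnac2 to Vim. Other genes called in both, such as Mki67, are not shown. Right, the difference of these effects with its 95% interval, which excludes 0 for St6galnac2, St6galnac1, Kcnf1, H2-T3, Rec8 and Vim and includes it for the rest.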

How the data were processed

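Per the labels' protocols, mRNA was bound to oligo(dT) beads and sequenced as 50-base single-end reads, with no step named that marks the strand and no molecular identifiers. Tools named in the submitters' processing notes are Salmon 0.14.1, Trim Galore 0.4.4, DESeq2 1.28.1 and R 4.0.3, with the build mm10. The deposited table has a signal column for each library, which holds read numbers that the authors had normalized and that are mostly not whole. Between 28.7% and 29.5% of the values in a library were whole multiples of its commonest step (tolerance 0.02), so no count test was run. Row numbers run to 21784, and 3346 of them are not in the table used here. All 8 libraries, grouped by their cell type and genotype labels, were fitted together in limma 3.58.1 (R 4.3.3, robust shrinkage with a trend) on log2(value + 1), with 1 coefficient per group and 4 residual degrees of freedom. P-values were adjusted by Benjamini-Hochberg over the 13358 genes. The script was tested on simulated data. Replicates correlated at 0.980 to 0.984 within groups.

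The members and the 43 lists were chosen with earlier results of these data known. Named genes were Ern1, Xbp1, Foxp3, Il2ra and Mki67, the called genes, the members of each list with the lowest p (at most 4), the 10 strongest genes shared by both cell types with the same sign, and those with opposite signs. T cell receptor segments and predicted genes were outside this rule. Trav7d-6 was added because it was 1 of 3 called, and Art2b, Trav7n-6, Trav7-6 and Lig1 as copies or neighbours of called genes. P2rx7 and Il2rb entered under the rule for lists, from the follicular helper list and the IL-2 and STAT5 list. They and the genes named in the closing section were singled out after their values were seen. Gene positions and transcript windows came from GENCODE M21 on GRCm38, the assembly also called mm10. The design allowed for counts or normalized values, and the test for the latter was used. Alternatives (20, of which 8 left out 1 library each) covered the pseudocount, the filter, the scaling, the shrinkage and replicate blocks. Summaries used Python 3.11.15 with pandas 2.3.3 and numpy 2.4.6, and plots matplotlib 3.10.9. A result that concerns a withheld item is not reported here.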

Additional observations from a re-analysis of the deposited data

Results flagged for a closer look

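The genotype effect differed between the cell types by the direct test for 3 genes. For Art2a the difference was 2.34, with the larger effect in Teff. For Zswim9 it was 3.79, with the larger effect in Treg. For Trav7d-6 it was 6.00, and it became -0.71 once the identical segment Trav7n-6 was added to it.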

How the results depend on the processing

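With 2 libraries a group, the calls changed more when 1 library was left out than when the scaling was changed. Leaving out 1 library also lowers the power of the test, so a lost call does not show that a result rests on that library. Leaving out 1 library called between 0 and 3 genes for the difference (0 to 2 with a positive sign, 0 to 1 with a negative sign), 44 to 192 for Treg and 347 to 642 for Teff, against 3, 194 and 924. A pseudocount of 5 called 6 (4 positive and 2 negative), no filter 5 (4 and 1), and equal library totals 5 (5 and 0). In each of these the 3 reported genes were called again. Deviations of same-numbered libraries correlated at -0.12 to 0.06, with 0.06 in WT and 0.05 in KO between Treg and Teff. Such correlations do not show whether Treg and Teff libraries came from the same animals. A replicate block called 2 genes for the difference and 114 for Treg, and a block within genotype 0, with 1238 genes at an unadjusted p below 0.05. A crossed replicate block, chosen after seeing the data, called 2 and 129. Art2a, Zswim9 and Trav7d-6 kept their sign in all 20 alternatives and lost the call in 7, 6 and 12, and their adjusted p ranged up to 0.125, 0.125 and 0.162. Small differences changed sign. Leaving out 1 library at a time, Xbp1 ranged from -0.087 to 0.18, H2-Bl from -0.36 to 0.14, H2-Q1 from -0.20 to 0.32, Rps3a3 from -0.29 to 0.78 and Eps8l1 from -0.064 to 0.68. After quantile normalization H2-Bl was at 0.074 and Rps3a3 at -0.081, and with a pseudocount of 5 Cygb was at -0.13. The cause was not tested.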

Other observations

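The following genes were chosen after their values were seen, from the 26 with an adjusted p below 0.1 for the difference, of which 21 were positive and 20 had the larger effect in Teff. S100a4, a calcium-binding protein of memory and effector cells, read 1705 and 1685 in WT Treg, 1705 and 1670 in KO Treg, 2548 and 2581 in WT Teff, and 1455 and 1347 in KO Teff. Teff lay above Treg in WT and below it in KO, and the difference was 0.87 (95% interval 0.65 to 1.08, limma adjusted p = 0.0591). Of its 50-base windows, 47.4% occur in another gene. Penk, the precursor of the enkephalin peptides, read 4695 and 4748 in WT Treg, 3693 and 3683 in KO Treg, 328 and 345 in WT Teff, and 117 and 90.0 in KO Teff (difference 1.35, 0.95 to 1.75, adjusted p = 0.0719). It lay lower in KO in both cell types. Adamts17, an extracellular metalloprotease, stood out in the other direction, at 186 and 194 in KO Teff and between 2.19 and 6.09 in the other 6 libraries (difference -5.36, -6.97 to -3.75, adjusted p = 0.0719), with a size that depends on the pseudocount.

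Of the B cell markers 10 of 12, and of the plasmacytoid dendritic cell markers 7 of 9, had a difference above 0. Over all genes the share was 52.9%. Spib, on both lists, read 160 and 126 in WT Teff and 58.8 and 51.2 in KO Teff, against 22.2 and 20.4 in WT Treg and 26.0 and 30.3 in KO Treg (difference 1.74, adjusted p = 0.154). Irf8 had a difference of 0.68 (adjusted p = 0.263) and Ccr9 of 1.09 (adjusted p = 0.157). Among genes of T cell identity, Thy1 had a difference of 0.28 (0.14 to 0.42, adjusted p = 0.165), and the 12 tested genes had a median of 0.03. Il2rb, the interleukin-2 receptor beta chain, had a difference of 0.48 (0.26 to 0.71, adjusted p = 0.153), with a called Teff effect of -0.56.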
